A study of Mus musculus with 12 samples.

Results

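The genes described here encode the nuclear-coded subunits of the mitochondrial respiratory chain and of ATP synthase, with assembly factors that share their gene names. Members were the genes whose symbol in the array annotation begins with Ndufa, Ndufb, Ndufc, Ndufs, Ndufv, Uqcr or Atp5, or is Sdha to Sdhd, or is Cox followed by a number. This gave 98 of the 18193 genes measured. They comprised 36 genes named as complex I subunits and 8 complex I assembly factors, 4 subunits of complex II, 8 of complex III, 17 of complex IV with 8 assembly factors, and 17 of ATP synthase. The probe set that stands for a gene was chosen by its measured level: of the probe sets annotated to that gene alone, the one whose mean over the 12 arrays was highest was taken. Levels were thus part of the choice and are given as a description. Those means ran from 3.83 to 14.26 on the log2 scale. No filter on low values was used, and 7 members had a mean below 6 while 74 had one of at least 9.

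Oxidative phosphorylation moves electrons from NADH through complex I, and from succinate through complex II, to ubiquinone, then through complex III and cytochrome c to complex IV, which reduces oxygen. Complexes I, III and IV pump protons across the inner mitochondrial membrane, and ATP synthase makes ATP as the protons flow back. The subunits come from both the nuclear and the mitochondrial genome, and assembly factors build them into complexes without remaining in them. The mitochondrially encoded subunits were not analysed here.

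Gene expression was measured on Affymetrix mouse arrays in embryonic gonads at E11.5, when the bipotential gonad begins to take the testis or ovary path. The 12 arrays formed 4 groups of 3 pools: Cbx2 knockout (KO) XY, wild-type (WT) XY, KO XX and WT XX. All embryos, WT included, came from crosses between Cbx2 heterozygotes and were staged by tail somites, and each pool combined laser-captured gonadal cells of 2 or 3 individuals, cut from 30 µm frozen sections and located by GATA4 staining and tissue form. RNA of 15 ng per pool was amplified before labelling. Cbx2 encodes a chromobox subunit of Polycomb repressive complex 1, which keeps developmental genes silent. The labels name no cell-type-restricted deletion, no strain and no deleted exon. The values are log2 RMA values made by the authors, errors of group means are SD with n = 3 pools, and p-values rest on the spread between pools.

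Several features of the arrays bear on the results. One label field of the WT arrays reads KO XX, whereas their titles and genotype field read wild type, and the last 2 were followed. Eif2s3y, a Y-linked gene, lay between 9.36 and 10.13 in XY arrays and between 3.12 and 3.73 in XX arrays. Cbx2 signal was higher in KO arrays (9.27 to 9.58) than in WT arrays (8.46 to 9.04), so the genotype rests on the labels. Averaged over sexes, 10.3% of all genes fell in KO. Of 6 gonadal somatic markers, 4 did (Gata4, Nr5a1, Lhx9 and Wnt4), and Wt1 and Emx2 did not pass. Their median difference was -0.72 and the lowest, that of Nr5a1, was -2.19. WT XX replicate 1 stood apart, correlating on average at 0.988 across genes with the rest of its own group and at 0.995 with the WT XY arrays. Results are therefore also given without it. The Gapdh 3′ minus 5′ control difference, which grows as transcripts shorten, was 4.78 to 5.0 in KO XY, 3.89 to 4.57 in WT XY, 3.81 to 4.23 in KO XX and 3.83 to 4.72 in WT XX.

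Respiratory chain and ATP synthase genes were mostly slightly lower in KO than in WT gonads, and few single genes passed the test. Averaged over both sexes, 17 members fell and 2 rose, and the difference was below 0 for 81 of the 98 members (82.7%, against 52.7% of all genes). The median difference was -0.12 on the log2 scale, against -0.01 over all genes. No member changed by more than 0.52 in this comparison. The largest change was that of the complex III subunit gene Uqcr10, which fell by 30.2% on the linear scale. Calls are limma tests over all 18193 genes at a Benjamini-Hochberg adjusted p under 0.05. The share of members called, 19.4%, lay near the 23.8% of all genes called in this comparison. Split by direction, 17 of 98 members fell, where 10.3% of all genes did, and 2 rose, where 13.4% of all genes did. Among genes with a mean of at least 9, the 74 members had a median of -0.12 and all 4661 genes one of 0.06. Without WT XX replicate 1 the members called were 15 (15.3%, against 22.7% of all genes in that fit). Without KO XY replicate 2 they were 9 (9.18%, against 21% of all genes). Without WT XY replicate 1 or KO XX replicate 2 they were 10 (10.2%, against 19.2% and 21.8% of all genes). With the Gapdh difference as a covariate, 6 members were called (6.12%, against 17.5% of all genes in that fit): Uqcr10, Ndufa12, Ndufb2, Ndufb4 and the assembly factor gene Ndufaf4 fell, and Cox7a2l rose.

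Within each sex alone the calls were fewer than the background. In XY gonads 3 members were called (3.06%, against 13.3% of all genes), and 18 had an unadjusted p under 0.05 (18.4%, against 25.7% of all genes). All 3 fell, as 6.75% of all genes did, and none rose, as 6.56% of all genes did. Those 3 were Ndufaf6, Ndufa12 and Cox18. In XX gonads 6 members were called (6.12%, against 13.7% of all genes), with 19 at an unadjusted p under 0.05 (19.4%, against 26.7% of all genes). Of these 5 fell, as 5.4% of all genes did, and 1 rose, as 8.3% of all genes did. Ndufb4, Uqcr10, Ndufa12, Ndufb2 and Atp5k fell, and Cox7c rose. Median differences were -0.12 in XY and -0.15 in XX, against 0.01 and -0.02 over all genes, and the difference was negative for 76 members in XY and 74 in XX (77.6% and 75.5%, against 48.8% and 52.9% of all genes). The XY median was -0.072 without WT XY replicate 1 and -0.060 with the Gapdh covariate. The XX median was -0.083 without KO XX replicate 2 and -0.22 with quantile normalization repeated. The XY and XX comparisons share no arrays: 63 members were negative in both, 11 positive in both, and 24 opposite, with Pearson's r of 0.56 and Spearman's rho of 0.54 across the members, which share arrays and normalization and are not independent. Across all genes Pearson's r was 0.83.

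The order of the arrays was counted too, with no test. All 3 KO arrays lay below all 3 WT arrays for 39 members in XY, where 18.1% of all genes did so, and for 22 members in XX, where 12.5% of all genes did so. Both held for 14 members, and the share of all genes for which both held was not counted. The opposite order, all KO arrays above all WT arrays, was seen for 6 members in XY and 2 in XX, against 18.9% and 14.1% of all genes. The 39 members in XY comprised 10 of 36 complex I subunits, 7 of 17 in complex IV and 7 of 17 in ATP synthase. They also held 6 of 8 in complex III, 5 of 8 complex I assembly factors, 2 of 4 in complex II and 2 of 8 complex IV assembly factors. Over all genes the share was 18.1%.

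**Figure D1:**
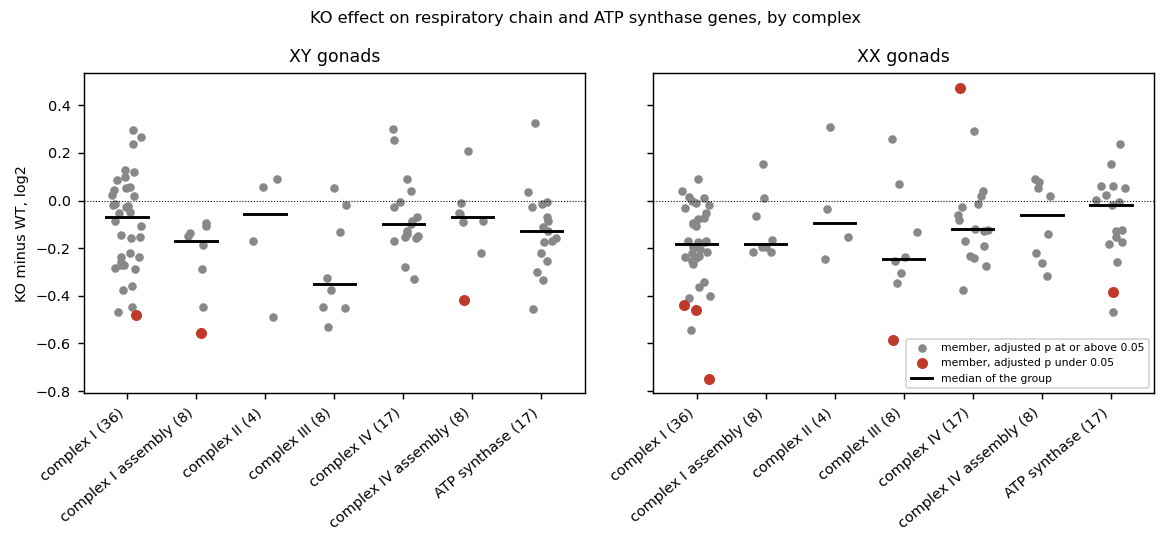
Each point is 1 of the 98 members, placed by complex (number of genes in brackets), with the KO minus WT difference in log2 on the vertical axis for XY gonads (left) and XX gonads (right). Bars are the median of each group and red points have an adjusted p under 0.05. Most points lie below 0 in both panels, with 3 red points in XY and 6 in XX.

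Promoters of members are shown because the transcription factors NRF1 and GABPA (also called NRF2) are known activators of nuclear respiratory genes. RefSeq promoters (GRCm38.p6, 250 bases before to 50 after the start) were available for 80 of the 98 members. Both strands were searched, and matches of different motifs may overlap. The NRF1 letters (GCGC, any base, then TGCGC) stood in the promoters of 17 members (21.2%), against 5.19% of all genes with a promoter entry. The GABPA letters CCGGAAG stood in those of 23 (28.8%), against 9.93%, the YY1 letters AAGATGGCG in those of 8 (1.64% of all genes) and the ERRα letters TCAAGGTCA in 2 (2.5%, against 0.466%). A match describes letters and is not shown to be a bound site. Of the 15 members that fell in the averaged comparison and had a promoter entry, 4 held the NRF1 letters and 6 the GABPA letters. The median KO difference was -0.10 for members with the NRF1 letters and -0.12 for those without, and -0.13 with the GABPA letters and -0.11 without, so the medians with and without these letters were close. Stretches around a match are given for 5 members that fell, as examples of the 2 commonest motifs. Each is written on the strand of the gene, 5′ to 3′, and the capitals mark the match. In Ndufs5 the match is on the opposite strand, so its capitals show the reverse complement of the motif.
Atp5k, chr5:108434415-108434474, minus strand, NRF1 motif beginning 50 bases before the start: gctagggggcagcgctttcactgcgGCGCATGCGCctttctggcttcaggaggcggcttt
Ndufs5, chr4:123718250-123718309, minus strand, NRF1 motif on the opposite strand 98 bases before the start: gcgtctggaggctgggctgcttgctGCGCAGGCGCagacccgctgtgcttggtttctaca
Uqcr11, chr10:80406856-80406912, minus strand, GABPA motif 66 bases before the start: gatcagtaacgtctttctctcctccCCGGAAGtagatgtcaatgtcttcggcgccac
Cox10, chr11:64079473-64079524, minus strand, GABPA motif 27 bases before the start: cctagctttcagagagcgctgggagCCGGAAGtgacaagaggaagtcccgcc
Ndufb7, chr8:83566713-83566757, plus strand, GABPA motif 20 bases before the start: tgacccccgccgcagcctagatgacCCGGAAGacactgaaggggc

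Complex I, the NADH dehydrogenase that begins the chain, had 36 members, of which 8 fell and none rose in the averaged comparison. The share called, 22.2%, lay near the 23.8% of all genes called (10.3% lower and 13.4% higher). Their median was -0.13, and 30 of the 36 were negative. Ndufa12, an accessory subunit, was the one member called in XY, in XX and averaged. Its log2 values were 11.98, 11.65 and 11.90 in KO XY, against 12.59, 12.19 and 12.20 in WT XY. In XX they were 11.59, 11.52 and 11.53 in KO, against 12.25, 11.93 and 11.84 in WT. The KO arrays lay below the WT arrays in both sexes without overlap. Ndufa12 fell by 0.48 ± 0.14 (SE) in XY (limma adjusted p = 0.0369) and by 0.46 ± 0.14 in XX (limma adjusted p = 0.0457). Averaged it fell by 0.47 ± 0.10 (limma adjusted p = 0.00309). The call in XY ended without KO XY replicate 2 or 3 or WT XY replicate 1 or 3, and that in XX without 9 of the 12 arrays in turn, WT XX replicate 1 among them. A dim further probe set at a mean of 3.90, the one left once probe sets that can match several transcripts are dropped, gave no call.

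Other accessory and core subunits of complex I fell as well. Ndufb2, a membrane-arm subunit, had values of 10.42, 10.25 and 10.32 in KO XY and 10.87, 10.52 and 10.67 in WT XY, with 10.07, 10.01 and 10.17 in KO XX and 10.65, 10.62 and 10.29 in WT XX. It fell by 0.40 ± 0.09 averaged (limma adjusted p = 0.00443) and by 0.44 ± 0.13 in XX (limma adjusted p = 0.0323). Its averaged call was kept under all alternatives run, while the XX call ended without KO XX replicate 1 or 2 or WT XX replicate 1 or 2. The KO arrays lay below the WT arrays in both sexes. Ndufs8, an iron-sulfur core subunit, had values of 11.80, 11.45 and 11.85 in KO XY, against 12.37, 12.01 and 12.05 in WT XY, and of 11.19, 11.04 and 11.49 in KO XX, against 12.21, 11.62 and 11.52 in WT XX. It fell by 0.49 ± 0.13 averaged (limma adjusted p = 0.0123), and without WT XX replicate 1 by 0.39. Over the alternatives its limma adjusted p ran from 0.0059 to 0.063, and the call ended with the Gapdh covariate alone. Ndufv2, an iron-sulfur subunit of the NADH-oxidising module, fell by 0.42 ± 0.13, and the accessory subunit Ndufs5 by 0.39 ± 0.10. Ndufb7 and Ndufb11, both in the membrane arm, fell by 0.33 ± 0.10 and 0.24 ± 0.08. These 4 had limma adjusted p of 0.0285, 0.0123, 0.0234 and 0.0444, in that order. The calls for Ndufv2 and Ndufb7 ended without KO XY replicate 2, WT XY replicate 1, or KO XX replicate 1 or 2. That for Ndufb7 also ended with the mean of all its probe sets. Its dimmer one, at a mean of 9.62, had -0.18 ± 0.12 (limma over all single-gene probe sets, adjusted p = 0.328). That for Ndufb11 ended without each array except WT XY replicate 3, KO XX replicate 3 and WT XX replicate 3, whereas that for Ndufs5 held without each array. With the Gapdh covariate all 4 calls ended (limma adjusted p = 0.063 for Ndufs5). A brighter probe set shared by Ndufs5 and Ndufs5-ps did not pass and is given among the other observations.

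Ndufb4, another membrane-arm subunit, was called on a dim probe set. Its values were 4.47, 4.26 and 4.2 in KO XY, 4.57, 4.44 and 4.73 in WT XY, 4.25, 4.27 and 4.59 in KO XX and 5.55, 4.74 and 5.06 in WT XX. The KO XX arrays all lay below the WT XX arrays, and the XY groups overlapped. It fell by 0.75 ± 0.18 in XX (limma adjusted p = 0.0101) and by 0.51 ± 0.12 averaged (limma adjusted p = 0.00764), and without WT XX replicate 1 by 0.53 in XX and 0.40 averaged. Both calls held without that array. Brighter probe sets assigned to Ndufb4 together with Ndufb4b and Ndufb4c, outside the members, are given among the other observations.

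The remaining 28 complex I genes were not called averaged over sexes. Of those with the highest probe set means, Ndufc2 had a difference of -0.04 ± 0.07 and Ndufa1 one of -0.03 ± 0.09. The NADH- and flavin-binding subunit Ndufv1 had a difference of -0.18 ± 0.09 (limma adjusted p = 0.162), and the largest iron-sulfur subunit, Ndufs1, one of -0.13 ± 0.08. The largest positive value was 0.16 ± 0.10, for Ndufb3. Ndufa4, now counted with complex IV but kept here under its name, had 0.05 ± 0.09. Among the 8 assembly factors, all differences were negative, with a median of -0.17. Calls covered 12.5% of them both averaged and in XY, against 23.8% and 13.3% of all genes. Ndufaf6 was called: its values were 7.16, 6.80 and 7.23 in KO XY, against 7.58, 7.80 and 7.49 in WT XY, and 6.99, 6.81 and 7.29 in KO XX, against 7.37, 7.26 and 7.04 in WT XX. The groups did not overlap in XY and did overlap in XX. Ndufaf6 fell by 0.56 ± 0.15 in XY (limma adjusted p = 0.0268) and by 0.38 ± 0.11 averaged (limma adjusted p = 0.021), with a difference of -0.20 ± 0.15 in XX. The difference between the sexes was -0.36 ± 0.22 and did not pass (limma adjusted p = 0.758). Its XY call ended without KO XY replicate 2, WT XY replicate 1 or WT XY replicate 2, and its averaged call without KO XY replicate 2, WT XY replicate 2 or KO XX replicate 2. Ndufaf3 had -0.31 ± 0.11 (limma adjusted p = 0.0546), and the brighter Ndufaf4 and Ndufaf8 had -0.18 and -0.16.

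**Figure D2:**
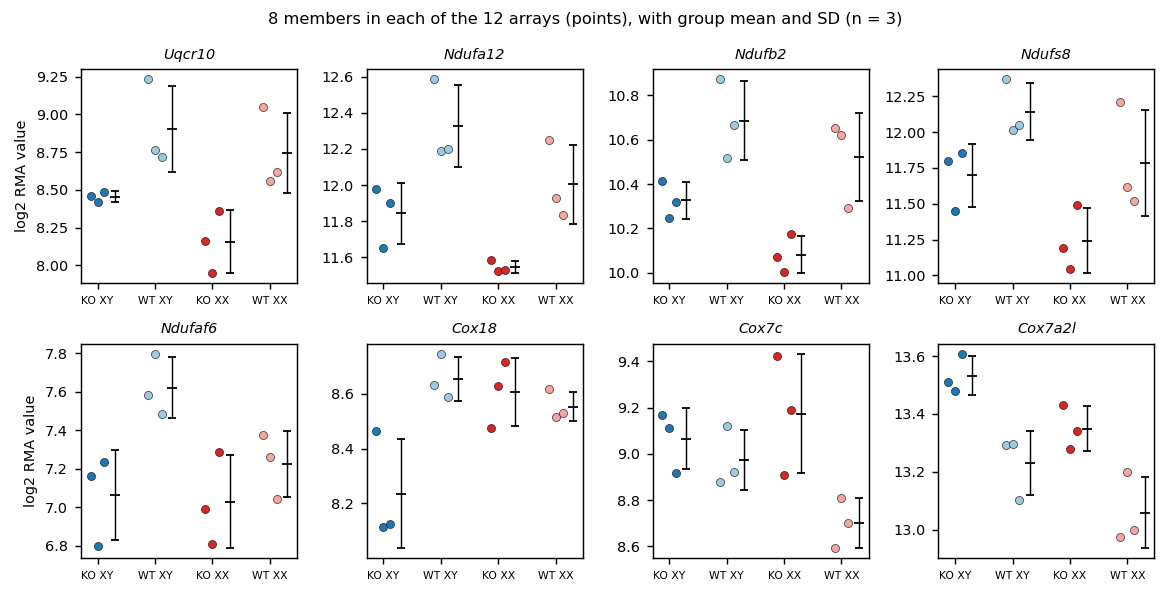
Log2 RMA values of 8 members in the 12 arrays, by group (KO XY, WT XY, KO XX, WT XX from left to right), with the mean and SD of 3 pools beside the points. For Uqcr10, Ndufa12, Ndufb2 and Ndufs8 the KO points lie below the WT points in both sexes, for Ndufaf6 and Cox18 in XY, and for Cox7a2l above them in both sexes.

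Complex II, succinate dehydrogenase, also serves the tricarboxylic acid cycle. Of its 4 genes 1 fell averaged over sexes (25% called, against 23.8% of all genes). Sdhb, the iron-sulfur subunit, had values of 10.29, 10.06 and 10.29 in KO XY, against 10.88, 10.58 and 10.65 in WT XY. In XX it had 9.99, 9.93 and 10.33 in KO, against 10.76, 10.06 and 10.17 in WT, where the arrays overlapped. Sdhb fell by 0.37 ± 0.12 averaged (limma adjusted p = 0.0386), and without WT XX replicate 1 the difference was -0.26 and the call ended. It also ended without any 1 of the KO XY arrays, WT XY replicate 1 or 3, or KO XX replicate 1 or 2, with limma adjusted p from 0.0167 to 0.192 over the alternatives. The flavoprotein gene Sdha had 0.18 ± 0.10 (limma adjusted p = 0.232), and the membrane anchors Sdhc and Sdhd had -0.03 ± 0.09 and -0.10 ± 0.07.

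Complex III, which passes electrons from ubiquinol to cytochrome c, had the lowest median of the complexes, -0.32 over 8 genes, with 3 that fell. Averaged over sexes 37.5% were thus called, against 23.8% of all genes. Per sex its medians were -0.35 in XY and -0.24 in XX. Uqcr10 had values of 8.46, 8.42 and 8.49 in KO XY, against 9.23, 8.77 and 8.72 in WT XY, and of 8.16, 7.95 and 8.36 in KO XX, against 9.05, 8.56 and 8.62 in WT XX. No KO array reached a WT array of its sex. Uqcr10 fell by 0.59 ± 0.16 in XX (limma adjusted p = 0.0264) and by 0.52 ± 0.12 averaged (limma adjusted p = 0.00406). Without WT XX replicate 1, the highest of its group, it fell by 0.44 averaged. The averaged call was kept under all alternatives that retained the gene, which the filter at a mean of 9 removed (limma adjusted p from 0.00221 to 0.0235), and the call in XX ended without KO XX replicate 1 or 2 or WT XX replicate 1. Uqcr11, a small subunit, and Uqcrc1, the first core protein, fell by 0.36 ± 0.11 and 0.35 ± 0.11 averaged (limma adjusted p = 0.0314 and 0.0288). Both calls ended without KO XY replicate 2, WT XY replicate 1, KO XX replicate 2 or WT XX replicate 1, and that for Uqcr11 also without KO XX replicate 1.

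The other 5 complex III genes did not pass. Uqcrfs1, the Rieske iron-sulfur protein, which carries electrons inside the complex, had values of 11.13, 10.66 and 11.09 in KO XY, against 11.46, 11.61 and 11.40 in WT XY, and overlapping values in XX (10.65 to 11.23 in KO, 10.67 to 11.44 in WT). Its difference was -0.53 in XY and -0.13 in XX. Uqcrc2 and Uqcrq had averaged differences of -0.19 ± 0.08 and -0.31 ± 0.11. Uqcrb, a subunit near the ubiquinone site, had values of 14.28 to 14.30 in KO XY, 14.20 to 14.30 in WT XY, 14.27 to 14.31 in KO XX and 13.88 to 14.41 in WT XX. The low value was WT XX replicate 1, and the averaged difference was 0.06 ± 0.09. Uqcrh, the hinge protein, had 0.12 ± 0.09.

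Complex IV, cytochrome c oxidase, had 17 genes, of which 2 rose and 1 fell averaged over sexes (17.6% called, against 23.8% of all genes). Cox7a2l, whose product joins complexes III and IV into supercomplexes, had values of 13.51, 13.48 and 13.61 in KO XY, against 13.29, 13.30 and 13.10 in WT XY. In XX it had 13.43, 13.28 and 13.34 in KO, against 12.98, 13.20 and 13.00 in WT. All KO arrays lay above the WT arrays of their sex. Cox7a2l rose by 0.30 ± 0.08 averaged (limma adjusted p = 0.0107), a 22.8% increase, and was called under all alternatives run. Its differences of 0.30 ± 0.11 in XY and 0.29 ± 0.11 in XX did not pass alone.

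Cox7c, a small subunit, rose in XX, where its values were 9.42, 8.91 and 9.19 in KO, against 8.59, 8.81 and 8.70 in WT. In XY they were 9.17, 9.11 and 8.92 in KO, against 8.88, 9.12 and 8.92 in WT, and overlapped. It rose by 0.47 ± 0.14 in XX (limma adjusted p = 0.032) and by 0.28 ± 0.10 averaged (limma adjusted p = 0.0461), with 0.09 ± 0.14 in XY. The call in XX ended without KO XX replicate 1 or 3 or WT XX replicate 1 or 3. The averaged call ended without any of those, KO XY replicate 1 or 2, or WT XY replicate 1 or 3. Cox6c, a small membrane subunit, fell by 0.27 ± 0.09 averaged (limma adjusted p = 0.0457). This call ended without any 1 of the 6 XY arrays, KO XX replicate 2 or 3, or WT XX replicate 2. The subunits with the highest probe set means, Cox5b, Cox6a1 and Cox4i1, had differences of -0.03 ± 0.07, -0.21 ± 0.07 and -0.08 ± 0.08. Cox7a2 had -0.30 ± 0.11 (limma adjusted p = 0.0607) and Cox5a -0.13 ± 0.07. Dimmer probe sets of Cox5a, Cox5b, Cox6a1 and Cox6c that fell are given below.

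Tissue-restricted forms of complex IV subunits gave no called difference. Cox7b2 and Cox4i2, which are testis- and lung-enriched forms, had group means of 3.71 to 3.96 and 4.23 to 4.51. The muscle forms Cox6a2, Cox7a1 and Cox8b averaged 6.93, 5.40 and 5.25 over all arrays, and the testis forms Cox6b2 and Cox8c averaged 6.67 and 7.63. None was called in the 3 KO contrasts (limma), and 0 had an unadjusted p under 0.05. Ndufa4l2, a relative of Ndufa4, averaged 5.70 and had a difference of -0.06 ± 0.07.

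Of the 8 complex IV assembly factors, 2 were called in some comparison. These were 1 averaged over sexes and 1 in XY (12.5% each, against 23.8% and 13.3% of all genes). Cox10, which makes heme O for the complex, had values of 8.10, 8.01 and 7.97 in KO XY, against 8.27, 8.27 and 8.22 in WT XY, and of 7.77, 7.96 and 7.97 in KO XX, against 8.36, 8.09 and 8.19 in WT XX. No array of KO reached one of WT within a sex. Cox10 fell by 0.27 ± 0.08 averaged (limma adjusted p = 0.0179), and its call held without each array. The call ended with the mean of all its probe sets and with the Gapdh covariate. Its dimmer probe sets, at means of 6.36 and 3.29, had 0.07 ± 0.11 and 0.06 ± 0.09. Cox18, which inserts a subunit into the membrane, differed between the sexes in its values: 8.47, 8.12 and 8.13 in KO XY, against 8.63, 8.74 and 8.59 in WT XY, and 8.47, 8.63 and 8.72 in KO XX, against 8.62, 8.51 and 8.53 in WT XX. It fell by 0.42 ± 0.12 in XY (limma adjusted p = 0.0299), with 0.05 ± 0.12 in XX. The difference of these effects was -0.47 ± 0.17 and did not pass over all genes (limma adjusted p = 0.751, unadjusted p = 0.0137). Its XY call ended without any 1 of KO XY replicates 2 and 3 or WT XY replicates 1, 2 and 3. The heme A synthase gene Cox15 had 0.15 ± 0.09 and the copper chaperone gene Cox17 had -0.15 ± 0.09.

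ATP synthase had 17 genes, of which 2 fell averaged over sexes, with a median of -0.07. The share called was 11.8%, against 23.8% of all genes. Atp5g1, which encodes the c subunit of the rotor ring, had values of 8.78, 8.64 and 8.76 in KO XY, against 9.50, 9.0 and 9.06 in WT XY. In XX it had 8.54, 8.23 and 8.56 in KO, against 9.27, 8.81 and 8.65 in WT. Atp5g1 fell by 0.46 ± 0.12 averaged (limma adjusted p = 0.011), and the call held without each array. The call ended with the Gapdh covariate. With the mean of all its probe sets the difference was 0.13, because a dimmer probe set (mean 6.35) rose by 0.72 ± 0.15. The other genes for the same c subunit, Atp5g2 and Atp5g3, had -0.14 ± 0.10 and -0.04 ± 0.07. Atp5k, the e subunit of the membrane part, fell by 0.28 ± 0.08 averaged (limma adjusted p = 0.0246) and by 0.38 ± 0.12 in XX (limma adjusted p = 0.0434). The averaged call ended without KO XY replicate 2, WT XY replicate 1 or KO XX replicate 2. It also ended with the Gapdh covariate, with the mean of all its probe sets and without probe sets that can match several transcripts. Its dimmer probe sets, at means of 11.48 and 11.16, had -0.28 ± 0.10 and -0.11 ± 0.09 (limma over all single-gene probe sets, adjusted p = 0.0667 and 0.409). The XX call ended without 9 of the 12 arrays in turn, each WT XX array among them.

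No gene of the catalytic head of ATP synthase was called averaged over sexes on its chosen probe set. Atp5a1 and Atp5b, the alpha and beta subunits that form the catalytic ring, had averaged differences of 0.28 ± 0.11 (limma adjusted p = 0.0846) and -0.03 ± 0.10 (limma adjusted p = 0.865). Atp5a1 had 13.88, 13.95 and 13.94 in KO XY, against 13.58, 13.70 and 13.51 in WT XY, and 14.10, 14.05 and 13.97 in KO XX, against 13.34, 14.03 and 14.04 in WT XX, where WT XX replicate 1 was the lowest array. Without that array the averaged difference of Atp5a1 was 0.16, and it passed without WT XX replicate 2 or 3 (0.34 in each case, limma adjusted p from 0.0388 to 0.747 over the alternatives). Its next probe set, with a mean of 12.50, had -0.06 ± 0.10 averaged and -0.25 ± 0.14 in XY. The gamma, delta and epsilon subunit genes Atp5c1, Atp5d and Atp5e had -0.05 ± 0.10, -0.17 ± 0.10 and -0.13 ± 0.10. A dimmer Atp5c1 probe set, at a mean of 7.94, rose by 0.39 ± 0.13 (limma over all single-gene probe sets, adjusted p = 0.0443). Atp5j2, of the membrane part, had -0.28 ± 0.10 (limma adjusted p = 0.0624). Atp5h, among the genes with the highest probe set means, had 0.03 (limma adjusted p = 0.824).

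**Figure D3:**
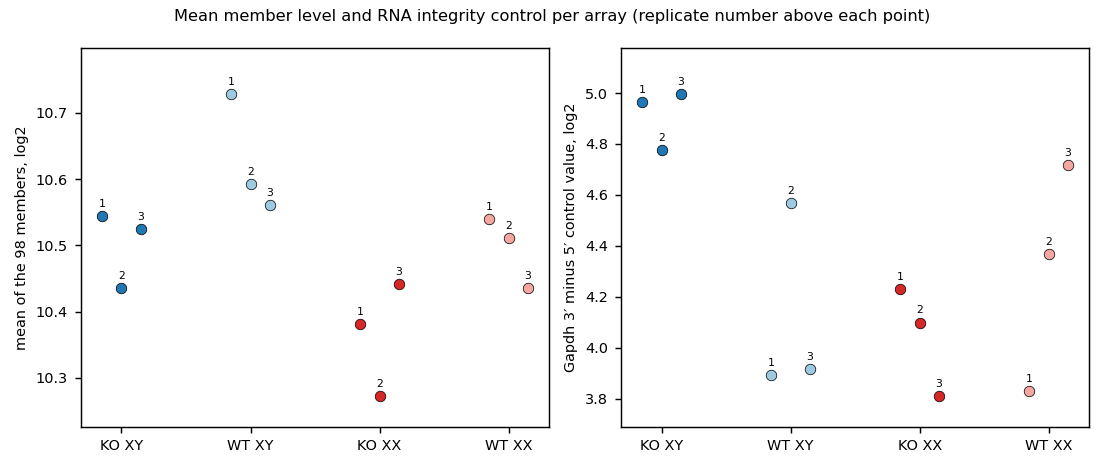
Left, the mean log2 value of the 98 members in each of the 12 arrays. Right, the Gapdh 3′ minus 5′ difference, log2, in the same arrays. Numbers are replicates. The KO XX arrays sit between 10.27 and 10.44 on the left and the WT XY arrays between 10.56 and 10.73, while on the right the KO XY arrays are above all others.

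The mean of the members per array was 10.54, 10.44 and 10.53 in KO XY, against 10.73, 10.59 and 10.56 in WT XY, and 10.38, 10.27 and 10.44 in KO XX, against 10.54, 10.51 and 10.44 in WT XX. KO XX replicate 2 held the lowest value of all 12 arrays for 42 members, and WT XY replicate 1 the highest for 50. In XY the Gapdh difference was larger in every KO array than in every WT array, and with it as a covariate 1 member was called in XY (1.02%, against 4.29% of all genes): the muscle form Cox7a1, at 0.74. None of Ndufaf6, Ndufa12 and Cox18 was called in XY then. In XX the Gapdh ranges overlapped, and 13 members were called with that covariate (13.3%, against 17.5% of all genes).

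Sex was compared next, and here the members were mostly higher in XY. In KO gonads 82 of 98 members were higher in XY than in XX (83.7%, against 57% of all genes), with a median of 0.18, against 0.03 over all genes. In WT gonads 80 of 98 were higher (81.6%, against 56.5% of all genes), with a median of 0.16, against 0.03. The WT median was 0.094 without WT XY replicate 1 and the KO median 0.11 without KO XX replicate 2. No member passed the limma test in either genotype (0.033% of all genes did in KO and 0.0605% in WT, 0.022% and 0.055% as higher in XY), and 22 in KO and 15 in WT had an unadjusted p under 0.05 (22.4% and 15.3%, against 10% and 10.4% of all genes). Without WT XX replicate 1, 12 members were called higher and 4 lower in WT XY than in WT XX (16.3%), in a fit that called 10.3% of all genes. All 8 complex III genes were higher in XY in both genotypes, and 16 of 17 complex IV genes were in KO and 17 of 17 in WT. Ndufs8, named after its values were seen, averaged 11.70 ± 0.22 in KO XY against 11.24 ± 0.23 in KO XX and 12.14 ± 0.20 in WT XY against 11.78 ± 0.37 in WT XX. The interaction test of KO effect between the sexes called no member (limma), against 0.0055% of all genes called, with 2 members at an unadjusted p under 0.05 (2.04%, against 6.45% of all genes).

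Other probe sets of the same genes were then compared with those chosen. A second single-gene probe set existed for 57 members, and the signs matched in 46. Where the second had a mean of at least 9, the signs matched for 30 of 33 members, and the median was -0.18 for the dimmer and -0.12 for the brighter. In 1160 pairs of that kind over all genes, 72.2% had the same sign. For 19 members at least 1 probe set disagreed in a call. For Atp5g1 they did so in opposite directions: the brighter fell by 0.46 ± 0.12 and a dim one (mean 6.35) rose by 0.72 ± 0.15 (limma over all single-gene probe sets, adjusted p = 0.0131 and 0.00394). Cox6a1 had a second probe set that fell by 0.58 ± 0.12 (adjusted p = 0.00349), against -0.21 ± 0.07 for its chosen one, and Cox6c one that fell by 0.60, against -0.27. Dimmer probe sets also fell for Ndufs4 (mean 5.72), Ndufc1 (10.51) and Cox8a (8.45), at -0.64, -0.26 and -0.26. Their limma adjusted p were 0.000951, 0.0444 and 0.026, and the chosen ones had 0.15, -0.06 and -0.19. Ndufa7 had dimmer ones (means 7.26 and 6.64) at -0.68 and -0.64 (limma adjusted p = 0.0144 and 0.0174), against -0.23 for its chosen one. For Cox5a and Cox5b, dimmer ones (means 11.67 and 7.46) fell by 0.28 and 0.37 (limma adjusted p = 0.0307 and 0.0157), against -0.13 and -0.03. Atp5c1 went the other way: its dimmer one (mean 7.94) rose by 0.39 (limma adjusted p = 0.0443), against -0.05. For Atp5k, Cox10, Cox7a2l, Ndufa12, Ndufb2, Ndufb7, Ndufs8 and Uqcr10 the chosen probe set passed and a dimmer one did not. Which transcripts these probe sets detect was not tested.

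**Figure D4:**
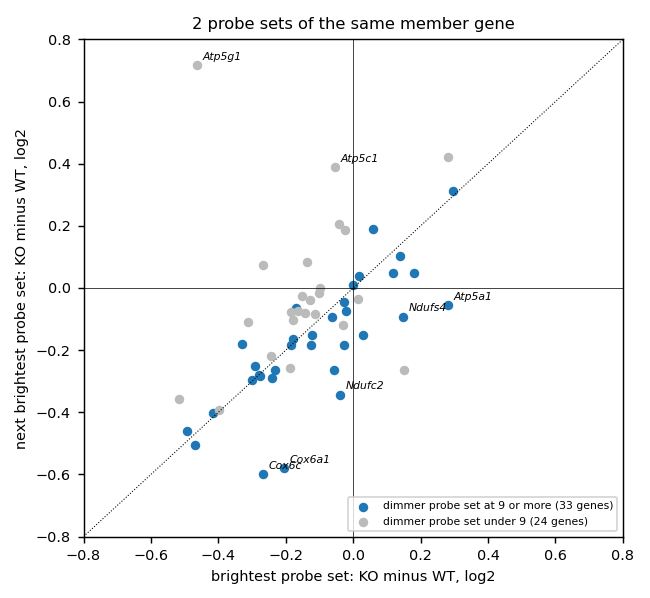
The KO minus WT difference averaged over sexes, log2, of the next brightest probe set of a member (vertical axis) against that of its brightest one (horizontal axis), for 57 members. Blue points have a dimmer probe set at 9 or more (33 genes), and the dotted line marks equal differences. Most blue points are in the lower left, and Atp5g1 lies at -0.46 on the horizontal and 0.72 on the vertical axis.

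Genes that supply, build or compete with the chain were compared by list, averaged over sexes. In this comparison 10.3% of all genes fell and 13.4% rose. Of 18 other electron transfer genes, 7 fell and none rose, with a median of -0.20. They included Sqor, the sulfide quinone oxidoreductase, at -0.61 ± 0.09, Etfdh, which feeds electrons from fatty acid oxidation, at -0.62 ± 0.12, cytochrome c (Cycs) at -0.40 ± 0.09 and Cyc1, the cytochrome of complex III, at -0.28 ± 0.09. Of 33 further assembly factors, 5 fell and 1 rose. The tricarboxylic acid cycle list had 3 of 17 lower, with Idh3a, a subunit of isocitrate dehydrogenase, at -0.73 ± 0.08 and Ogdh, of oxoglutarate dehydrogenase, at -0.54 ± 0.12. In glycolysis 7 of 17 fell and none rose, including Hk1, a hexokinase, at -1.24 ± 0.14, Ldhb, a lactate dehydrogenase subunit, at -0.76 ± 0.07, and Aldoa, an aldolase, at -0.50 ± 0.07. Whether any list differed from the members was not tested.

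Ribosomal protein genes were counted in the same way, beside the same shares of all genes (10.3% lower and 13.4% higher). Of 76 genes named as mitochondrial ribosomal proteins, 19 fell and 2 rose, with a median of -0.18, while of 49 cytosolic ribosomal protein genes 1 fell and 1 rose, with a median of 0.03. Among 21 regulators of mitochondrial biogenesis, 3 rose and 1 fell. Ppargc1a, a coactivator that induces respiratory genes in other tissues, averaged 8.35 ± 0.44 in KO XY against 6.44 ± 0.39 in WT XY, and 8.24 ± 0.30 in KO XX against 5.58 ± 0.40 in WT XX, a rise of 2.29 ± 0.18 averaged. Esrrg and Gabpa rose by 0.57 ± 0.08 and 0.32 ± 0.09, and Ppara fell by 1.68 ± 0.15. Nrf1 and Tfam, the activator and the factor that maintains mitochondrial DNA, had -0.09 ± 0.12 and -0.05 ± 0.10.

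**Figure D5:**
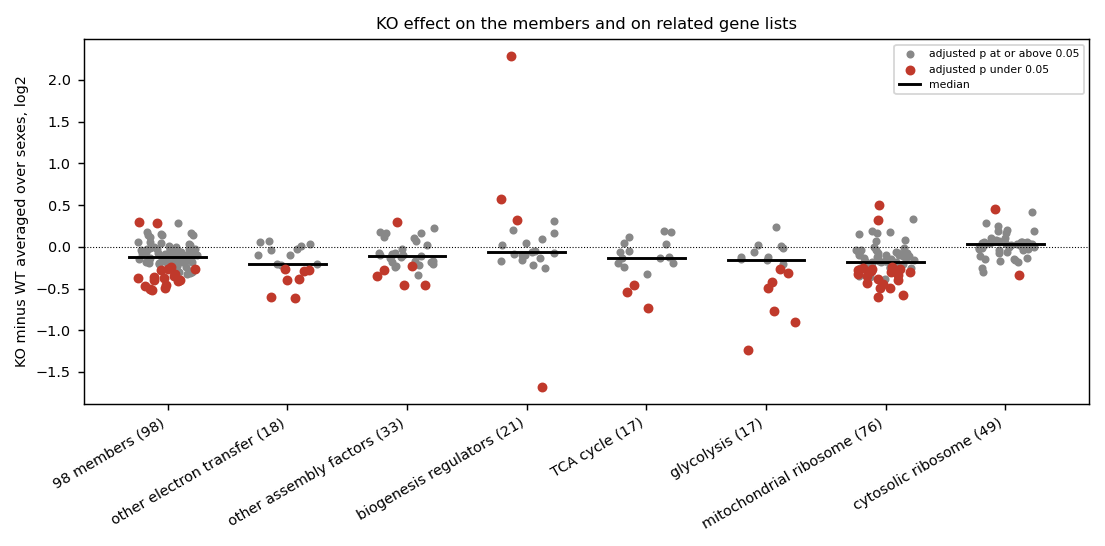
KO minus WT difference averaged over sexes, log2, for the 98 members and 7 related gene lists (number of genes in brackets). Bars are medians and red points have an adjusted p under 0.05. The members, the mitochondrial ribosome and glycolysis have medians of -0.12, -0.18 and -0.16, and the cytosolic ribosome one of 0.03.

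Markers of the cell types in the captured tissue moved with genotype as well. Calls are averaged over sexes, where 10.3% of all genes fell and 13.4% rose. The summed level of 6 gonadal somatic markers, log2, was 13.04 to 13.17 in KO XY, against 13.77 to 13.91 in WT XY, and 12.84 to 13.34 in KO XX, against 13.67 to 13.83 in WT XX. Of the 6, 4 fell, and Wt1 and Emx2 did not pass. Of 8 endothelial markers 6 fell, with sums of 10.61 to 10.98 in KO XY and 11.14 to 11.30 in WT XY, and of 10.73 to 11.40 in KO XX and 11.03 to 11.35 in WT XX. Of 8 macrophage markers 4 rose, with sums of 11.35 to 11.48 in KO XY and 10.51 to 10.93 in WT XY, and of 11.03 to 11.95 in KO XX and 10.59 to 11.17 in WT XX. In the germ cell list 4 of 7 rose, in the neural list 1 of 6 rose and in the muscle list 1 of 8 fell. In the mesonephric list 2 of 6 fell and 1 rose. The mesonephric sums were 8.17 to 8.34 in KO XY and 10.01 to 10.18 in WT XY. In XX these sums were 8.21 to 8.70 in KO and 9.11 to 9.89 in WT, without overlap in either sex. In the erythroid list none of 6 was called (limma), with 1 at an unadjusted p under 0.05. RMA values have no true zero, so no marker is at 0. In bulk samples, fewer cells of a type and less RNA per cell cannot be told apart, and the part of these shifts in the members' values was not tested.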

How the data were processed

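The deposited log2 values were used as given. Per the submitters' processing notes the authors ran RMA, with affy and Affymetrix Expression Console named (no versions). RMA corrects background, quantile-normalizes arrays and summarises probe sets, and differences of dim probe sets are compressed. Of 45101 probe sets, 64 were controls and 34945 had a single gene, 34741 of them matched to RefSeq identifiers. Tests used limma 3.58.1 under R 4.3.3 (lmFit, eBayes, 4 group means, 8 residual degrees of freedom), two-sided, with Benjamini-Hochberg adjustment over 18193 genes and a threshold of 0.05. Arrays have no read depth, so their number limits the precision. No batch is labelled.

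The members and lists were chosen with earlier results of these data known. Named members were those called with the largest changes, the 3 brightest and 3 with the smallest p per complex, restricted isoforms and genes with discordant probe sets; 4 called genes at most per other list. Motifs were searched by letters. Replicate numbers were checked for pairing by correlating deviations from group means. All 3 same-number pairs of WT XY and WT XX were above 0.1 (0.235, 0.1004 and 0.106), so those arrays were treated as possibly paired by number. The labels give no pairing, and these values do not show one. They depend on each other, and single pairs of KO XY and WT XX were as high (0.279 and 0.221). In no other pair of groups were all 3 above it (range over 18 pairs -0.21 to 0.28). The steps were tested on simulated data. Alternatives covered normalization, filters, probe set choice, variance prior, array weights, the replicate block, the groups fitted, a Gapdh covariate and leaving out each array; dropping probe sets that can match several transcripts was chosen after seeing the data.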

Additional observations from a re-analysis of the deposited data

How the results depend on the processing

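Averaged over sexes, the 19 members called became 6 with the Gapdh 3′ minus 5′ covariate (6.12%, against 17.5% of all genes). They became 28 with quantile normalization repeated (27 lower, 28.6%, against 24.4% of all genes). When single arrays were left out they were 9 to 22, in fits that called 19.2% to 24.2% of all genes. In XX the 6 called became 12 with quantile normalization repeated (none higher, 12.2%, against 13.2% of all genes). They became 3 among genes with a mean of at least 9 (4.05%, against 18.6%) and 2 with array weights (2.04%, against 11.7%). When only the 2 groups were fitted 0 were called (against 8.42% of all genes), and with the Gapdh covariate 13 were (13.3%, against 17.5%). Without single arrays 1 to 6 were called. They were 1 without KO XX replicate 1 and 2 without KO XX replicate 2 (against 11% and 11.4% of all genes). They were 3 without WT XX replicate 1 or 2 (against 12.3% and 12.2%). In XY the 3 called became 1 among genes with a mean of at least 9 (1.35%, against 20.9% of all genes in that fit). They became 17 with array weights (17.3%, against 24.2%) and 15 when only the 2 groups were fitted (15.3%, against 20.9%). With the Gapdh covariate 1 was called (1.02%, against 4.29%). Without single arrays 0 to 14 were called. They were 0 without WT XY replicate 1 or KO XY replicate 2 (against 8.78% and 9.64% of all genes). They were 1 without KO XY replicate 3, WT XY replicate 2 or WT XY replicate 3 (against 9.44%, 10.1% and 8.94%). Without WT XX replicate 1 they were 14 (14.3%, against 18.7%). Between XY and XX in WT, 0 called became 9 with array weights (9.18%, against 6.55% of all genes). Without single arrays 0 to 16 were called, where 16 was without WT XX replicate 1 (16.3%, against 10.3% of all genes). XY against XX in KO and the interaction called 0 members in each alternative run, and 0 to 0 without single arrays. With the replicate number as a block, the members called were 7 in XY (7.14%, against 14.1% of all genes). They were 9 in XX (9.18%, against 13.7%) and 21 averaged (21.4%, against 24.3%). For XY against XX in WT, the comparison treated as possibly paired, 0 were called, so no call changed there. Of 28 calls for 20 named members, 4 were kept in each alternative that gave a value, averaged over sexes: Cox7a2l and Ndufb2 in 22, Uqcr10 in 21 (the mean filter at 9 removes it) and Ndufb4 in 20 (both mean filters remove it). Atp5c1 turned to 0.39 without probe sets that can match several transcripts (a dimmer probe set), where it was called (limma adjusted p = 0.038). Atp5g1 turned to 0.13 with the mean of all its probe sets, which differ in direction. The median interaction, 0.026 as reported, ran from -0.014 (without KO XX replicate 2) to 0.081 (without WT XY replicate 1) when single arrays were left out, and was 0.096 with quantile normalization repeated and 0.15 with the Gapdh covariate. Repeating quantile normalization left 1224 genes higher and 1170 lower in XX, against 1510 and 983 as reported. The mean filter at 9 moved the median of all genes in XX to 0.10. Other causes were not tested. Signal over background limits the 7 members with means below 6.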

Other observations

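Several subunit genes are read by probe sets that the annotation assigns to more than 1 gene, and these are outside the 98 members. The probe set for Ndufb4 together with Ndufb4b and Ndufb4c, at a mean of 11.27, averaged 11.13 ± 0.25 in KO XY against 11.79 ± 0.13 in WT XY, and 10.75 ± 0.18 in KO XX against 11.39 ± 0.36 in WT XX (SD, n = 3 pools). It fell by 0.67 ± 0.18 in XY, by 0.64 ± 0.18 in XX and by 0.65 ± 0.13 averaged over sexes (limma adjusted p = 0.0304, 0.0355 and 0.00211). A second probe set for the same genes, at a mean of 8.93, fell by 0.61 ± 0.11 averaged (limma adjusted p = 0.00186). These copies cannot be told apart on this array. The probe set of Ndufa11 and Ndufa11b, for another complex I subunit, fell by 0.56 ± 0.13 averaged (limma adjusted p = 0.00695), while a dimmer one for that pair, at a mean of 6.51, had 0.15 ± 0.09. The probe set shared by Ndufab1, the mitochondrial acyl carrier protein, and its pseudogene fell by 0.27 ± 0.08 (limma adjusted p = 0.0288). Those shared by Ndufs6 and Ndufs6b and by Cox14 and Gm29733 had -0.12 ± 0.10 and -0.11 ± 0.09 and did not pass. The probe set shared by Ndufs5 and Ndufs5-ps, at a mean of 8.78, had -0.23 ± 0.11 averaged (limma adjusted p = 0.157). The single-gene probe set on which Ndufs5 was called had a mean of 7.36.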
